A study of Mus musculus with 9 samples.

Results

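The genes described are the 10 members of the mouse HSP70 and HSP110 chaperone families named Hspa1a, Hspa1b, Hspa8, Hspa1l, Hspa2, Hspa5, Hspa9, Hspa4, Hspa4l and Hsph1. They were chosen by symbol out of 55487 genes in the count table, and all 10 passed the filter on low counts that left 14851 genes for testing. They were measured by sequencing of polyadenylated RNA from the gastrocnemius, a calf muscle, of wild-type mice that the labels give as male and of the strain C57BL/6. The study's own text names the substrain C57BL/6J for this experiment. The Control group held 4 libraries from mice in conventional cages. The Unloading group held 2 libraries taken after 10 days of hindlimb unloading, in which a line on the tail lifts the hindquarters keeping weight off the hind legs. The Reloading group held 3 libraries from mice that had been unloaded for 10 days and then returned to normal cage activity for 1 day. The Reloading mice therefore carry both the unloading and the return of load, and the age of the mice is not given in the sources used here. The methods of the study describe female mice for the unloading procedure, against the male sex in the labels.

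HSP70 proteins are chaperones that bind short hydrophobic stretches of unfolded proteins and release them in a cycle driven by ATP. J-domain proteins bring substrates and trigger ATP hydrolysis, and exchange factors, among them the HSP110 proteins and the Bag proteins, release ADP and substrate. Each compartment has its own member. Hspa8 (HSC70) works in the cytosol of unstressed cells, Hspa1a and Hspa1b (HSP70) are induced there by stress, Hspa5 (BiP) serves the lumen of the endoplasmic reticulum (ER) and Hspa9 (mortalin) the mitochondrial matrix, where it also pulls imported proteins through the inner membrane. In muscle, HSP70 with its partner Bag3 takes part in the turnover of damaged filament proteins such as filamin.

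The members lie apart in the genome except for 3 of them. Hspa1b, Hspa1a and Hspa1l sit side by side on chromosome 17 (GRCm38), with Hspa1b at chr17:34956436-34959238 and Hspa1a at chr17:34969190-34972156, both on the minus strand and both a single exon. Hspa1l starts 546 bases beyond the start of Hspa1a and runs on the plus strand at chr17:34972703-34979285. The Hspa1a and Hspa1b genes are near copies, and their promoters are shown because these were the members with the highest fold changes and because the upstream sequences differ at only 3 of 250 bases. The sequences are those of RefSeq (GRCm38.p6) on the minus strand, running up to the base before the transcription start, and the capitals mark the single match to a pair of heat shock units, the kind of site that heat shock factors bind.
Hspa1a, chr17:34972157-34972406: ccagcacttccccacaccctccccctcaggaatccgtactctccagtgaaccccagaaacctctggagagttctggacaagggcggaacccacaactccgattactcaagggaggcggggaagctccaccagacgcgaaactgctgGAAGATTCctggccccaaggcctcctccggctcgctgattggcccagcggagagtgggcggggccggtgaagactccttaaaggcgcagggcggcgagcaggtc
Hspa1b, chr17:34959239-34959488: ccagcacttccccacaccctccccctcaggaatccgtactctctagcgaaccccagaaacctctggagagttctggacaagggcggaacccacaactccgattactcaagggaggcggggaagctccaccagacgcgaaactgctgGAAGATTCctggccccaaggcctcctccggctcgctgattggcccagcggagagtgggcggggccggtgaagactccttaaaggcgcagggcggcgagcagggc

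The pair of units was searched as GAANNTTC or TTCNNGAA, each of which reads the same on both strands, within 250 bases before and 50 bases after each start. In both genes it began 104 bases before the start. This short pattern is common and was present in 15.1% of 32851 promoter windows. A longer run of 3 alternating GAA and TTC units with 2 bases between units was present in 0.603% of windows, and among the 8 members with a promoter window it was found only in Hsph1. The 30 bases around it, inside the annotated gene on the minus strand, are shown with the run in capitals.
Hsph1, chr5:149636280-149636309: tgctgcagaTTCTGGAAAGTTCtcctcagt

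The ER stress element, CCAAT and CCACG with 9 bases between them on either strand, is known from promoters of ER chaperones. It was present in 0.119% of windows and, among the members, only in that of Hspa5, where it began 65 bases before the RefSeq start. It is shown in capitals on the plus strand with its flanks.
Hspa5, chr2:34772019-34772048: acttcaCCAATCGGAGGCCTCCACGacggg
The windows of Hspa1l, Hspa2, Hspa4 and Hspa4l held none of the 3 patterns. Promoter windows for Hspa8 and Hspa9 were not used here. These matches describe letters and not binding.

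How well each member could be counted depended on its copies. In the GENCODE M21 transcripts, 58.8% of the 50-base windows of Hspa1a were also present in Hspa1b, and 62.3% of those of Hspa1b in Hspa1a. Read pairs that match more than 1 place were not counted, so the counts of both genes rest on the remaining sequence. Of the 50-base windows of Hspa8, 39.4% were shared with other genes, led by the gene models Gm15459 and Gm26825. In Hspa1l the antisense gene Gm10501 covered 71.9% of the exonic bases, and in Hspa1a the antisense gene Gm20481 covered 19.0%. The counting took no account of strand, so pairs in the overlaps could not be told apart and belong to neither gene. Gm10501 held 0 to 8 counts in the 9 libraries and Gm20481 held 0 in each. Hspa2, Hspa5, Hspa4 and Hsph1 shared no 50-base window with another gene.

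The libraries held 9252443 to 19612101 read pairs in genes, so that 1 pair stood for 0.0546 to 0.113 counts per 1000000 (CPM) once the trimmed mean of M-values (TMM) had set the scale. Reloading libraries stood apart in make-up. Their TMM factors were 1.11 to 1.13 against 0.928 to 0.960 in the other groups. Genes encoded by mitochondrial DNA took 6.49% to 6.75% of their counts against 9.36% to 10.6%. With library totals alone as the scale, the all-gene median log2 fold change moved from 0.03 to 0.27 for Reloading against Unloading, where 82.8% of the calls then lay higher in place of 49.3% with TMM. For Reloading against Control it moved from 0.01 to 0.25, and the share of higher calls from 50.9% to 80.2%. Control 2 and Reloading 1 carried skin keratin, with 1086 and 502 Krt2 counts where no other library had more than 3. Defining genes of skeletal muscle fibres were abundant throughout, summing over 8 genes to 136945 to 150387 CPM in Control, 134809 to 141757 CPM in Unloading and 96595 to 108723 CPM in Reloading. The labels do not say which libraries came from which mice beyond their replicate numbers, so the p-values measure the spread between these libraries.

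**Figure D1:**
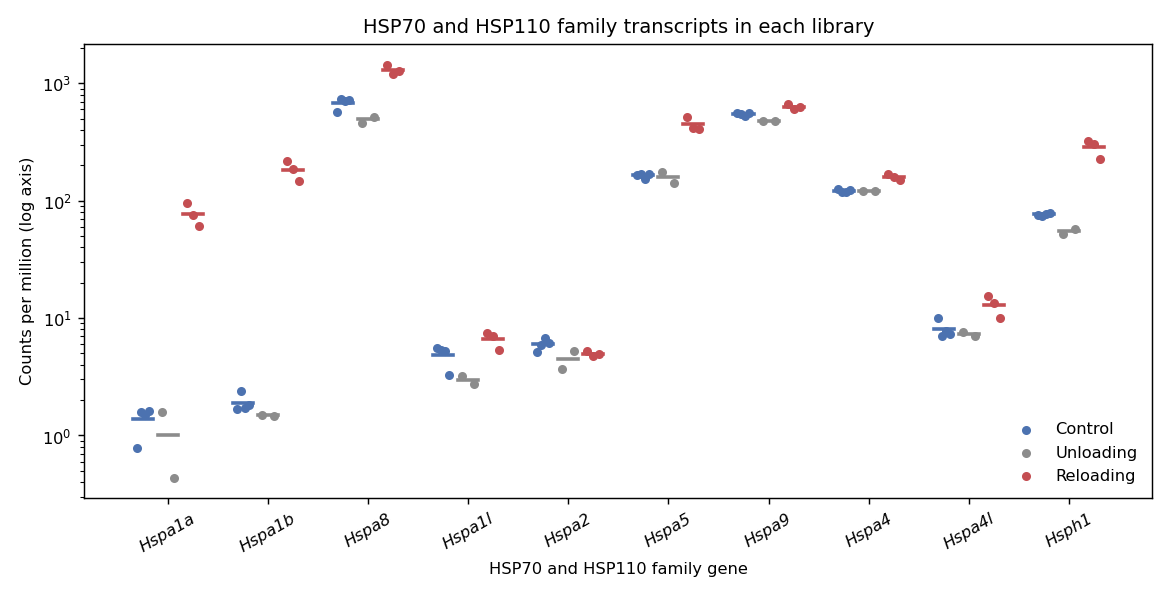
CPM of the 10 members on a log axis, with 1 point per library and a line at the mean of each group (4 Control, 2 Unloading and 3 Reloading libraries). Hspa1a and Hspa1b lie at 0.437 to 2.40 CPM outside Reloading and at 60.7 to 219 CPM within it, while Hspa2 overlaps between groups.

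The inducible members had by far the highest fold changes after the return of load. Hspa1b stood at 1.69, 2.40, 1.71 and 1.80 CPM in Control 1 to 4, at 1.497 and 1.475 CPM in Unloading 1 and 2, and at 219, 186 and 148 CPM in Reloading 1 to 3. The lowest Reloading library thus lay far above the highest of the other 6. Against Unloading, Hspa1b in Reloading was higher by 123-fold, or 6.94 ± 0.20 (SE) on the log2 scale (adjusted p = 2.21e-11, edgeR), and against Control by 6.58 ± 0.15 on that scale (adjusted p = 6.25e-13, edgeR).

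Hspa1a encodes the same chaperone type from the neighbouring copy. It stood at 0.789, 1.58, 1.50 and 1.63 CPM in Control, at 1.57 and 0.437 CPM in Unloading and at 96.5, 74.8 and 60.7 CPM in Reloading. All 3 Reloading libraries were again far above the rest, while the 2 Unloading libraries differed from each other, with 21 and 8 counts behind their values. Its log2 fold change was 6.37 ± 0.31 (SE, adjusted p = 2.47e-09, edgeR) for Reloading against Unloading and 5.76 ± 0.23 (SE, adjusted p = 9.74e-11, edgeR) for Reloading against Control. Without Unloading 1 the first of these was 7.43, and without Unloading 2 it was 5.60.

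Neither inducible gene passed the test between Unloading and Control. The log2 fold change was -0.36 (95% CI -1.01 to 0.29) for Hspa1b and -0.61 (95% CI -1.63 to 0.41) for Hspa1a. Both Unloading values of Hspa1b lay below the 4 Control values, with counts of 15 to 29 in these 6 libraries. Per kilobase of exon, Hspa1a was at 0.685 ± 0.194 of the level of Hspa1b in Control (SD, n = 4), at 0.636 ± 0.503 in Unloading (SD, n = 2) and at 0.395 ± 0.019 in Reloading (SD, n = 3). The Reloading ratios, 0.381 to 0.417, were the most alike, and all 3 lay below the Control range of 0.441 to 0.855. With the counts of both genes summed, the log2 fold change for Reloading against Unloading was 6.75 ± 0.22 (SE, adjusted p = 1.12e-10, edgeR).

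Hspa8, the constitutive cytosolic chaperone, moved in both directions. It stood at 569, 731, 705 and 723 CPM in Control, at 462 and 522 CPM in Unloading and at 1443, 1196 and 1273 CPM in Reloading. The 3 groups did not overlap, with Unloading lowest and Reloading highest. It was 1.39-fold lower in Unloading than in Control (log2 fold change -0.47 ± 0.11 SE, adjusted p = 0.0126, edgeR). In Reloading it was 2.65-fold higher than in Unloading (log2 fold change 1.41 ± 0.11 SE, adjusted p = 5.14e-07, edgeR) and 1.91-fold higher than in Control (log2 fold change 0.93 ± 0.09 SE, adjusted p = 1.32e-06, edgeR). Without Unloading 1 the decrease between Unloading and Control no longer passed (log2 fold change -0.38, adjusted p = 0.215, edgeR), with the lone Unloading library taken to vary like the other groups.

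The testis-type cytosolic members were scarce. Hspa1l and Hspa2 are best known from male germ cells, where Hspa2 is needed for meiosis. Of 7 male germ cell markers, 3 were at 0 in each group, with only Prm2 and Acrv1 at 0 in all groups. The summed level of the 7 was 0.497 to 1.72 CPM in Control, 1.20 CPM in both Unloading libraries and 0.506 to 0.886 CPM in Reloading. Hspa1l stood at 5.53, 5.31, 5.29 and 3.26 CPM in Control, at 3.22 and 2.73 CPM in Unloading and at 7.41, 7.09 and 5.36 CPM in Reloading. Every Reloading value lay above both Unloading values, and the log2 fold change between them was 1.16 ± 0.23 (SE, adjusted p = 0.00101, edgeR). Its log2 fold change was -0.71 ± 0.22 (SE, adjusted p = 0.0595, edgeR) for Unloading against Control and 0.45 ± 0.18 (SE, adjusted p = 0.0562, edgeR) for Reloading against Control. Neither passed in the fit used here, and each passed in 5 of 19 alternative fits, with adjusted p from 0.0120 to 0.246 for the first and from 0.00659 to 0.182 for the second (edgeR and DESeq2). One of these was the fit with a replicate block by the numbers in the sample descriptions, where Hspa1l was higher in Reloading than in Control by 0.54 (adjusted p = 0.00903, edgeR). The neighbouring start of Hspa1a and the antisense gene lie within the same few kilobases, and their part in the Hspa1l counts was not tested.

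Hspa2 did not pass in any comparison. It stood at 5.19, 5.89, 6.72 and 6.18 CPM in Control, at 3.67 and 5.25 CPM in Unloading and at 5.24, 4.77 and 4.90 CPM in Reloading, and each pair of groups overlapped. The log2 fold change was 0.14 (95% CI -0.24 to 0.52) for Reloading against Unloading, -0.42 (95% CI -0.78 to -0.06) for Unloading against Control and -0.28 (95% CI -0.60 to 0.04) for Reloading against Control. The first interval leaves out a 2-fold change in either direction.

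Hspa5, the ER member, was higher after reloading and close to Control after unloading. It stood at 166, 170, 153 and 169 CPM in Control, at 175 and 142 CPM in Unloading and at 519, 415 and 406 CPM in Reloading. The Unloading libraries lay on either side of the Control range, and the Reloading libraries all lay above it. The log2 fold change was 1.49 ± 0.12 (SE, adjusted p = 2.87e-07, edgeR) for Reloading against Unloading, a 2.82-fold difference, and 1.44 ± 0.09 (SE, adjusted p = 2.00e-08, edgeR) for Reloading against Control. Between Unloading and Control it was -0.05 (95% CI -0.28 to 0.17).

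Hspa9, the mitochondrial member, changed least of the called members in the comparison with Control. It stood at 560, 544, 523 and 561 CPM in Control, at 479 and 480 CPM in Unloading and at 666, 608 and 629 CPM in Reloading. The groups were narrow and did not overlap. The log2 fold change was 0.40 ± 0.07 (SE, adjusted p = 0.000528, edgeR) for Reloading against Unloading and 0.21 ± 0.06 (SE, adjusted p = 0.00934, edgeR) for Reloading against Control, and -0.19 ± 0.07 (SE, adjusted p = 0.0919, edgeR) for Unloading against Control. Without both libraries with skin transcripts, the difference between Reloading and Control was 0.17 and did not pass (adjusted p = 0.0815, edgeR). It was 0.45 with library totals as the scale, where the median of all genes stood at 0.25.

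The 3 HSP110 members, which act as exchange factors for HSP70 and keep unfolded proteins soluble, differed among themselves. Hsph1 (HSP105), the heat-inducible one, stood at 75.3, 73.6, 77.2 and 79.3 CPM in Control, at 51.7 and 57.8 CPM in Unloading and at 321, 306 and 227 CPM in Reloading. As for Hspa8, the groups did not overlap and Unloading was lowest. Reloading lay above Unloading by 5.19-fold (log2 fold change 2.37 ± 0.13 SE, adjusted p = 7.77e-09, edgeR) and above Control by 3.72-fold (adjusted p = 2.30e-09, edgeR). It was 1.39-fold lower in Unloading than in Control (log2 fold change -0.48 ± 0.12 SE, adjusted p = 0.0193, edgeR), a call that was lost without Unloading 1 (adjusted p = 0.246, edgeR).

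Hspa4 (APG-2), expressed in most tissues, stood at 126, 119, 119 and 122 CPM in Control, at 121 and 122 CPM in Unloading and at 170, 159 and 149 CPM in Reloading. Control and Unloading lay together and Reloading above both. The log2 fold change was 0.39 ± 0.08 (SE, adjusted p = 0.000974, edgeR) for Reloading against Unloading and 0.39 ± 0.06 (SE, adjusted p = 0.000151, edgeR) for Reloading against Control. Between Unloading and Control its log2 fold change had a 95% CI of -0.15 to 0.15.

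Hspa4l (APG-1) was the lowest of the 3 in every group. It stood at 10.0, 7.05, 7.79 and 7.29 CPM in Control, at 7.56 and 7.05 CPM in Unloading and at 15.3, 13.5 and 9.93 CPM in Reloading. Reloading 3 lay just under Control 1, so these 2 groups overlapped although the test passed. The log2 fold change was 0.82 ± 0.18 (SE, adjusted p = 0.00260, edgeR) for Reloading against Unloading and 0.69 ± 0.15 (SE, adjusted p = 0.00193, edgeR) for Reloading against Control.

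**Figure D2:**
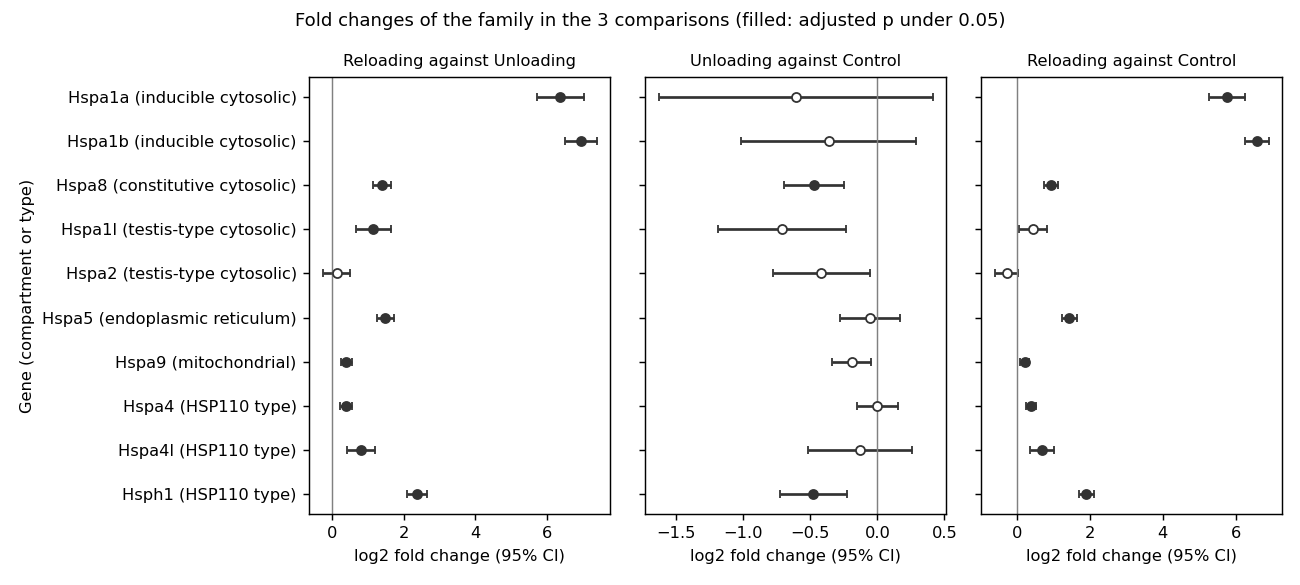
Log2 fold changes of the 10 members with 95% confidence intervals in the 3 comparisons (edgeR), filled where the adjusted p is under 0.05; each panel has its own horizontal scale. In Reloading against Unloading 9 members are filled and lie to the right of 0, and in Unloading against Control only Hspa8 and Hsph1 are filled.

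Counted together, 9 of the 10 members were higher in Reloading than in Unloading, none was lower, and Hspa2 did not pass. Of all 14851 genes tested, 37.5% were called in that comparison and 18.5% were called higher. The median log2 fold change was 1.28 over the members and 0.03 over all tested genes. The CPM of the groups did not overlap for these 9 members, which all lay higher, as did 31% of all tested genes, while 29% lay lower.

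For Unloading against Control, 2 members, Hspa8 and Hsph1, were lower and none was higher. Of all tested genes 9.9% were called and 5.5% were called lower. At an unadjusted p under 0.05 (edgeR) there were 5 members, all with a negative log2 fold change. Of all 14851 tested genes, 3816 were under that value in either direction. The median log2 fold change was -0.39 over the members and -0.00 over all tested genes, and 5 members lay lower without overlap and none higher, against 16.6% and 16.4% of all tested genes. Without Unloading 1 no member was called, and 121 genes were called in all in place of 1470. Hspa8 and Hsph1 were both called without the libraries with skin transcripts and without Unloading 2.

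For Reloading against Control, 8 members were higher and none was lower, with Hspa1l and Hspa2 not passing. Of all tested genes 43.5% were called and 22.1% were called higher. With the replicate block by description number 9 members were called, Hspa1l among them. The median log2 fold change was 0.81 over the members and 0.01 over all tested genes. Without overlap 7 members lay higher and none lower, against 24.2% and 22.7% of all tested genes. The comparisons share their libraries, so Reloading against Unloading and Reloading against Control are not separate evidence. Without both libraries with skin transcripts 9 members were called in Reloading against Unloading and 7 in Reloading against Control.

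Levels between members were set side by side as CPM per kilobase of exon. Pairs from sequence shared with other genes were not counted. The shared part of the 50-base windows was 71.4% in Hspa1l, 66.3% in Hspa1a, 62.3% in Hspa1b and 39.4% in Hspa8. In the others it was 2.81% or less. Through this alone the levels of these 4 members are too low by unequal amounts. With 100-base windows the shared part of these 4 was lower, at 70.8%, 56.5%, 49.9% and 28.5% in the same order. The lengths without shared windows given below rest on the 50-base windows and so leave out more. In Control the order of the mean levels was Hspa8 at 159 CPM per kilobase, Hspa9 at 127, Hspa5 at 38.9, Hspa4 at 22.0, Hsph1 at 10.5, Hspa2 at 2.27, Hspa1l at 1.96, Hspa4l at 0.699, Hspa1b at 0.679 and Hspa1a at 0.463. The ranges over the libraries overlapped for Hspa2 and Hspa1l and for Hspa4l and Hspa1b, so the order within these pairs is not set. With lengths that leave out the shared windows, Hspa1l lay above Hspa2 at 6.86, and Hspa1b at 1.80 and Hspa1a at 1.37 lay above Hspa4l at 0.702. In Unloading, Hspa8 at 114 ± 9.77 (SD, n = 2) and Hspa9 at 111 ± 0.245 (SD, n = 2) CPM per kilobase overlapped at the top, and stood apart at 189 and 114 without the shared windows. In Reloading the order was Hspa8 at 303, Hspa9 at 147, Hspa5 at 106, Hspa1b at 65.7, Hsph1 at 39.2, Hspa4 at 28.8, Hspa1a at 26.1, Hspa1l at 2.68, Hspa2 at 1.88 and Hspa4l at 1.12, and the range of Hspa1a overlapped with those of Hspa4 and Hsph1. Without the shared windows the Reloading order began with Hspa8 at 500.1, Hspa1b at 174, Hspa9 at 151, Hspa5 at 106 and Hspa1a at 77.4 CPM per kilobase, and the range of Hspa1b took in that of Hspa9. The place of Hspa1b among the members in Reloading therefore depends on the length used. Hspa1b stood at 0.216 ± 0.033 (SD, n = 3) of the level of Hspa8 in Reloading and at 0.00429 ± 0.00063 in Control (SD, n = 4) per kilobase of exon, and at 0.348 ± 0.053 and 0.00690 ± 0.00101 without the shared windows.

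The 7 HSP70 members without the HSP110 type were also summed as a pool of transcripts, each scaled by its full exon length. Through shared sequence alone, this understates the constitutive, inducible and testis-type cytosolic members against Hspa5 and Hspa9. The exon length also merges the exons of all annotated transcripts of a gene. Which of these transcripts the muscle used was not tested, so the net direction for each share is not known. The pool summed to 330 ± 17.1 CPM per kilobase in Control (SD, n = 4), 267 ± 4.61 in Unloading (SD, n = 2) and 652 ± 65.9 in Reloading (SD, n = 3), and the groups did not overlap. The inducible share was 0.345% ± 0.050 in Control (SD, n = 4), 0.326% ± 0.109 in Unloading (SD, n = 2) and 14.0% ± 1.81 in Reloading (SD, n = 3). The mitochondrial share was 38.6% ± 2.59 (SD, n = 4), 41.7% ± 0.629 (SD, n = 2) and 22.6% ± 1.29 (SD, n = 3) in the same order, although the level of Hspa9 itself was higher in Reloading. The ER share was 11.8% ± 0.732 in Control (SD, n = 4), 14.1% ± 2.27 in Unloading (SD, n = 2) and 16.2% ± 0.641 in Reloading (SD, n = 3).

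The constitutive share was 48.0% ± 3.26 in Control (SD, n = 4), 42.8% ± 2.92 in Unloading (SD, n = 2) and 46.5% ± 1.43 in Reloading (SD, n = 3), and Reloading overlapped with Control. With Hspa1a and Hspa1b left out of the pool, the difference between Reloading and Control in this share turned from -1.47 to 5.93 percentage points. Without the shared windows the cytosolic shares were higher, at 0.712%, 0.695% and 24.5% for the inducible and 58.8%, 54.0% and 49.1% for the constitutive members in Control, Unloading and Reloading, and the mitochondrial share was 29.6%, 32.8% and 14.9%. The differences between Reloading and Unloading in the constitutive and ER shares then turned from 3.67 and 2.08 to -4.92 and -0.44 percentage points, so the direction of these 2 is not set. The testis-type share was 1.29% in Control, 1.08% in Unloading and 0.700% in Reloading. In two-sided exact permutation tests the inducible, mitochondrial, ER and testis-type shares each gave p = 0.0571 for Reloading against Control, which is the smallest p that 4 libraries against 3 allow. Reloading against Unloading cannot go below 0.2, which the inducible, constitutive, mitochondrial and testis-type shares reached and the ER share, at 0.4, did not. Exact permutation of Unloading against Control cannot go below 0.133 and gave p = 0.267 to 0.8 over the 5 shares, so no share could pass 0.05 in this design.

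**Figure D3:**
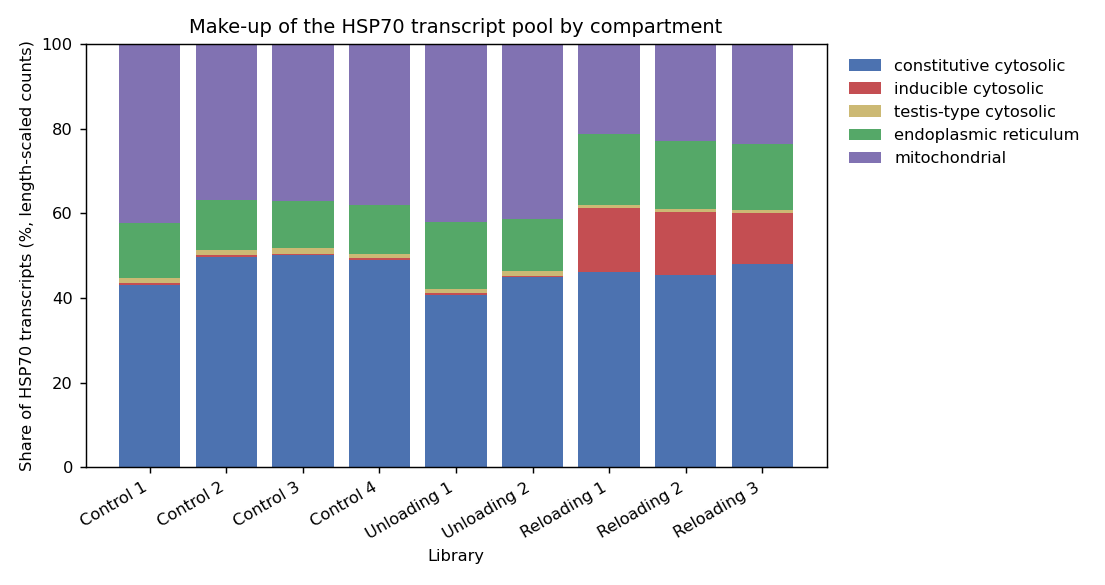
Share of each compartment in the summed length-scaled counts of the 7 HSP70 members, as a stacked bar to 100% for each of the 9 libraries. The inducible share is 11.9% to 15.2% in the 3 Reloading bars and 0.249% to 0.406% in the other 6, and the mitochondrial share is 21.2% to 23.7% in Reloading against 36.9% to 42.4%.

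Set against the HSP70 pool, the HSP110 members as a sum were higher in both Unloading libraries than in the 4 of Control. The sum itself was lower, at 29.7 and 30.6 CPM per kilobase in Unloading against 32.2 to 34.0 in Control. Per 100 units of HSP70 transcript per kilobase there were 10.1 ± 0.722 of HSP110 in Control (SD, n = 4), 11.3 ± 0.0598 in Unloading (SD, n = 2) and 10.6 ± 1.07 in Reloading (SD, n = 3), and the Unloading values of 11.2 and 11.3 lay above the Control range of 9.41 to 11.1, while the Reloading range of 9.61 to 11.7 overlapped with both. Without the shared windows these means were 7.52, 8.64 and 6.78, and the Reloading range of 6.26 to 7.46 then lay below both Unloading values. These ratios were not tested. The ratio of Hsph1 to Hspa4 per kilobase was 0.478 ± 0.018 in Control (SD, n = 4), 0.343 ± 0.025 in Unloading (SD, n = 2) and 1.35 ± 0.169 in Reloading (SD, n = 3). Hsph1 was thus the lower of the pair in Control and Unloading and the higher in all 3 Reloading libraries. The ratio of Hspa5 to Hspa9 was 0.307 ± 0.009 (SD, n = 4), 0.337 ± 0.049 (SD, n = 2) and 0.716 ± 0.071 (SD, n = 3) in the same order.

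The partners of HSP70 in the same compartments were read from 7 lists, whose counts stand against 18.5% higher and 19% lower of all tested genes in Reloading against Unloading, 4.4% and 5.5% in Unloading against Control, and 22.1% and 21.3% in Reloading against Control. Of 9 cytosolic J-domain partners, 5 were higher and 2 lower in Reloading than in Unloading. Dnaja4 stood at 50.9 to 59.6 CPM in Control, at 50.8 and 49.8 CPM in Unloading and at 592, 519 and 450 CPM in Reloading, 10.4-fold higher than in Unloading (adjusted p = 1.44e-10, edgeR). Dnajb1 (HSP40), the heat-inducible partner of Hspa1a and Hspa1b, was 9.04-fold higher (adjusted p = 3.95e-08, edgeR), Dnaja1 2.66-fold and Dnajb2 1.81-fold. The J-domain partners thus split, since Dnaja2 was lower by a log2 fold change of -0.34 (adjusted p = 0.00586, edgeR) and Dnajb6, which has 3 heat shock units before its start, of -0.27 (adjusted p = 0.0108, edgeR). Unloading against Control called Dnajb6 higher (log2 fold change 0.27) and Dnajb5 lower (log2 fold change -0.27), and these calls were lost in 8 and 10 of 19 alternative fits. For Reloading against Control the list again gave 5 higher and 2 lower.

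Among 9 cytosolic exchange factors and connectors, 4 were higher and Bag1 was lower in Reloading than in Unloading, where 18.5% of all tested genes were higher and 19% lower. Bag3, which links HSP70 to selective autophagy, stood at 106 to 132 CPM in Control, at 92.0 and 97.0 CPM in Unloading and at 412, 336 and 265 CPM in Reloading, higher than in Unloading by 1.83 ± 0.15 (SE) on the log2 scale (adjusted p = 4.83e-07, edgeR). Stip1 (HOP), which joins HSP70 to HSP90, was 2.65-fold higher, St13 1.57-fold and Bag2 1.38-fold. The median over the list, 0.22, was lower than that of the members. Stip1 was also lower in Unloading than in Control (log2 fold change -0.30, adjusted p = 0.0467, edgeR), a call that did not hold without several single libraries.

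Of 9 ER partners of Hspa5, 5 were higher and Dnajc10 was lower in Reloading than in Unloading. Sdf2l1 was 4.40-fold higher (adjusted p = 2.93e-05, edgeR), Hyou1 (GRP170), the exchange factor of Hspa5, 2.698-fold, the J-domain protein Dnajb9 2.33-fold and Dnajb11 1.47-fold. Of 14 other ER folding and stress genes, 11 were higher and none was lower, and the median of the list on the log2 scale was 0.91. Manf was 3.41-fold higher, the disulfide isomerases Pdia6 2.48-fold and Pdia3 2.23-fold, and Xbp1, a transcription factor of the unfolded protein response, 2.30-fold. In Unloading against Control none of the 14 was called in either direction with edgeR. Sec63, which places a J-domain at the translocation channel, was the single ER partner called in that comparison (log2 fold change 0.45, adjusted p = 0.00646, edgeR). The ER stress element was present in the windows of Hsp90b1, Calr, Canx, Pdia6, Creld2 and Dnajc3, out of 12 other ER genes and 7 ER partners with a window.

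Of 12 mitochondrial partners of Hspa9, 3 were higher and 3 lower in Reloading than in Unloading, shares near the 18.5% and 19% of all tested genes. In Reloading against Control 2 were higher and 5 lower, against 22.1% and 21.3% of all tested genes. The matrix chaperonin genes Hspe1 (HSP10) and Hspd1 (HSP60), which share a promoter that holds overlapping runs of 3 heat shock units, were 2.21-fold (adjusted p = 5.55e-06, edgeR) and 1.51-fold (adjusted p = 0.000223, edgeR) higher than in Unloading. The J-domain protein Dnaja3 was also higher than in Unloading, by a log2 fold change of 0.36 (adjusted p = 0.00327, edgeR). Dnajc19 was lower by a log2 fold change of -0.43 (adjusted p = 0.00625, edgeR), and Dnajc15 by -0.63 in Reloading against Control (adjusted p = 7.15e-06, edgeR), both J-domain proteins of the import motor. Dnajc15 was the single mitochondrial partner called in Unloading against Control (log2 fold change -0.31, adjusted p = 0.0251, edgeR). That call was lost in 5 of 19 alternative fits. The median over the list was -0.14 for Reloading against Unloading. These partners are nuclear genes. Genes encoded by mitochondrial DNA, a separate set, took a lower share of all counts in Reloading, as given above.

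Of 5 other HSP70-related genes, 4 were higher in Reloading than in Unloading. Hspa12b, known from endothelium, had a log2 fold change of 0.75 (adjusted p = 0.000846, edgeR), and the microsomal Hspa13 of 0.72 (adjusted p = 0.00318, edgeR). Hspa14, a ribosome-bound member, had 0.40 (adjusted p = 0.0157, edgeR), which lost its call in 5 of 19 alternative fits. Of the 4 tested genes in the heat shock factor list, Hsf1 was higher (log2 fold change 0.25, adjusted p = 0.0354, edgeR) and Hsbp1, which binds Hsf1, was lower (-0.30, adjusted p = 0.00875, edgeR). The Hsf1 call was lost in 10 of 19 alternative fits. Hyou1 sits in 2 of the lists.

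**Figure D4:**
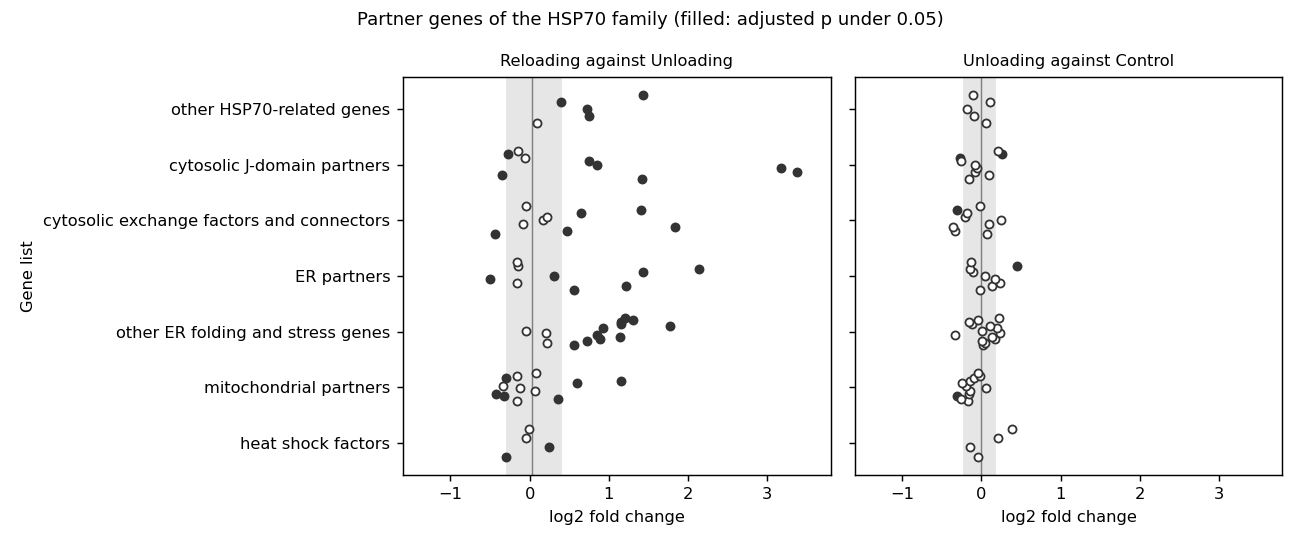
Log2 fold changes of the partner genes in 7 lists for Reloading against Unloading (left) and Unloading against Control (right), filled where the adjusted p is under 0.05 (edgeR); the grey band holds the middle 50% of all tested genes and the grey line is their median. On the left the genes of the cytosolic lists reach up to 3.37, those of the ER lists up to 2.14 and those of the mitochondrial list up to 1.15, all beyond the band. On the right only 5 points are filled.

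Other cell types moved with the comparison. Summed over 8 macrophage markers the level was 71.7 to 89.1 CPM in Control, 74.8 CPM in both Unloading libraries and 155 to 176 CPM in Reloading. Much of this rise was Cd68, with means of 2.57, 3.05 and 45.9 CPM in the same order. The median log2 fold change over the 8 was 0.74 for Reloading against Unloading. In that comparison 7 of the 8 were called higher, against 18.5% of all tested genes. Of 6 endothelial markers 5 were called higher (137 to 169 CPM in Control, 146 to 149 CPM in Unloading, 246 to 310 CPM in Reloading), and so were all 5 smooth muscle markers (112 to 137, 97.5 to 101 and 168 to 190 CPM). Of 8 muscle fibre markers 5 were called lower. The 6 neutrophil markers summed to 0.429 to 5.86 CPM over all libraries, with Ly6g, the most specific of them, at no more than 1 count in a library, and the 5 fibroblast markers to 426 to 735 CPM with 2 called in each direction. Their part in the differences of the HSP70 members was not tested. In whole muscle, a shift in the share of a cell type and a shift in RNA per cell cannot be told apart.

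Over the 9 libraries, the genes whose log2 CPM followed a member most closely were picked from 13152 genes with a mean of at least 1 CPM, as a description in which the 3 groups set most of the correlation. For Hspa1b they were Cryab (r = 0.999), a small heat shock protein of the Z-disc, Dnaja4 (r = 0.998) and Flnc (r = 0.997), the muscle filamin. Flnc (r = 0.992) was also among the closest of Hspa5, after Sf3b3 (r = 0.994) and Klhl41 (r = 0.993), a protein of the sarcomere. Hspa8 was followed by Txndc5 (r = 0.995), an ER thioredoxin protein, Caskin2 (r = 0.992) and Afg3l2 (r = 0.989), a mitochondrial protease. Hspa9 was followed less closely, by Polr3d (r = 0.984), Vwf (r = 0.984) and Vopp1 (r = 0.971).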

How the data were processed

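RNA of 9 gastrocnemius muscles was sequenced after poly-A enrichment. The authors aligned reads to GRCm38.p6 with STAR 2.7.3a and deposited raw counts of read pairs per gene from featureCounts 2.0.3, counted without strand against Ensembl release 102. The study's methods describe single reads, whereas the file header shows that pairs were counted. The authors' tables of their own comparisons were used for gene symbols only.

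The tests used edgeR 4.0.16 under R 4.3.3 (filterByExpr, minimum count 10 and total 15, TMM, one quasi-likelihood fit of all 9 libraries with group as the term), with Benjamini-Hochberg adjustment over 14851 genes and a threshold of 0.05. CPM carry TMM factors, and levels between genes are per kilobase of exon. The fit was tested on simulated data. Sequences were credited to RefSeq (8 of 10 members matched) and shared windows to GENCODE M21. Named genes were the 10 members, up to 4 called genes per partner list and comparison with the largest fold change, and the 3 genes most like each of 4 members. Other genes were named after their values were seen. The members and lists were chosen with earlier results of these data known. Alternatives were other scalings, no filter, DESeq2 1.42.0, a robust fit, fewer libraries, replicate blocks, summed Hspa1a and Hspa1b counts, and other pool definitions. Scaling by exon length without the shared windows was added after the data had been seen. Titles and descriptions number the libraries differently. By description number the deviations from the group means correlated at 0.361, 0.1425 and 0.155 in the 3 pairs of Control and Reloading. The first pair was the libraries with skin transcripts. These values are only a hint from the data that the numbers pair the libraries. The main fit used no pairing, and the replicate block by description number was an alternative.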

Additional observations from a re-analysis of the deposited data

Results flagged for a closer look

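Within the 4 Control libraries, 5 of 15 values examined had 1 library far from the others by Dixon's ratio of the gap to the range, against the 95% critical value, which chance alone exceeds in about 1 of 20 groups. For Hspa1a the ratio was 0.846, with Control 1 at 0.789 CPM and the others at 1.50 to 1.63 CPM. For Hspa8 it was 0.841, with Control 1 at 569 CPM and the others at 705 to 731 CPM. Control 1 also set the ratio of 0.839 for the constitutive share of the HSP70 pool, at 43.1% against 49.0% to 50.1%, a share that Hspa8 makes up alone. For Hspa1b the ratio was 0.845, with Control 2, one of the libraries with skin transcripts, at 2.40 CPM and the others at 1.69 to 1.80 CPM. For Hspa1l it was 0.895, with Control 4 at 3.26 CPM and the others at 5.29 to 5.53 CPM. Without Control 4, Hspa1l was called lower in Unloading than in Control (log2 fold change -0.86, adjusted p = 0.0152, edgeR), whereas the call of Hspa8 in that comparison stood without Control 1 (adjusted p = 0.00393, edgeR). Control 1 had the lowest total, 9252443 read pairs.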

How the results depend on the processing

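Over the log2 fold changes of the members and their alternatives, 543 values kept direction and side of the threshold, 10 reversed, 10 gained and 4 lost the call. In Reloading against Unloading 9 members were called in every alternative fit, or 8 with Hspa1a and Hspa1b summed, and in Reloading against Control 7 to 9 were. Leaving out single libraries gave 121 to 1518 called genes and 0 to 3 called members for Unloading against Control, with 121 and 0 without Unloading 1 and 949 genes without Control 3. The values that reversed did not pass the test. They were Hspa2 in Reloading against Unloading (-0.0843 to 0.43 over single libraries left out), and in Unloading against Control Hspa4 (-0.0144 to 0.0153 over single libraries left out, 0.0036 with DESeq2 size factors, 0.0353 without the filter, 0.0119 with the DESeq2 Wald test), Hspa1a (-1.67 to 0.15) and Hspa5 (-0.21 to 0.0853). The inducible share in Unloading against Control ran from -0.0952 to 0.0590 percentage points over single libraries left out, and the constitutive share in Reloading against Control turned to 0.735 with counts not divided by length and to 5.93 without Hspa1a and Hspa1b. With length without shared windows, an alternative chosen after seeing the data, Reloading against Unloading turned to -4.92 for the constitutive and to -0.442 for the ER share. The cause was not tested. Partner genes gave 986 values that kept their call and 59 that lost it.

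Replicate numbers in titles and in descriptions differ. Deviations of same-numbered libraries correlated at -0.201 to 0.0752 by title number (7 pairs) and at 0.0172 to 0.361 by description number (6 pairs). All 3 description pairs of Control and Reloading were over 0.1, as were 2 of 20 differently numbered pairs, so a shared batch of Control and Reloading libraries was not dismissed. The 3 pairs with Unloading reached 0.0752. The 2 Unloading libraries deviated from their mean by equal and opposite amounts, so this contrast cannot tell whether they share a batch. With the replicate block by title number 5108, 1042 and 5705 genes were called for Reloading against Unloading, Unloading against Control and Reloading against Control, and by description number 4902, 1479 and 6632. The block left 9 members called in the first comparison. In the second, 2 members were called by title number, where Hspa8 lost its call (adjusted p = 0.0609, edgeR) and Hspa1l gained one (adjusted p = 0.0178, edgeR), and 3 by description number, where Hspa1l was added (adjusted p = 0.0120, edgeR). In the third, 8 were called by title number and 9 by description number, again with Hspa1l. All 10 gained calls over the alternatives were those of Hspa1l. Hspa2 in the first turned to -0.0155 by description number. Hspa1a and Hspa1b rest on 7 to 29 counts a library outside Reloading.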
